A study of Mus musculus with 22 samples.

Results

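Kidney RNA of wild-type mice was compared between the hours around the onset of rest (zeitgeber times ZT0 and ZT4, here called early day) and the hours around the onset of activity (ZT12 and ZT16, here called early night). All wild-type arrays labelled with these times were used, 4 on each side, so that 8 of the 22 arrays of the series entered the comparison. Zeitgeber time counts hours from lights on at ZT0, with lights off at ZT12. The mice had lived for 2 weeks under 12 hours of light and 12 hours of darkness and spent their last 30 hours in constant darkness, so the sampling times are subjective day and night without light. Wild-type mice came from the colony of the Clock-deficient line, which was bred from heterozygous parents, and the labels give the whole kidney as source and the left kidney as tissue. Each array carried a pool of RNA from 2 or 3 mice, so single animals were not measured. There were 2 pools per time, and the labels do not say whether they came from separate litters or days. A p-value therefore sets a difference against the spread between pools, not between animals. The fit estimates that spread over all groups with 2 pools, Clock-deficient ones included. Age, sex and feeding are not described in the labels. The other arrays are wild type at ZT8 (1 pool) and ZT20 (2 pools), and Clock-deficient kidney at the same 6 times (11 pools). Of these, the 7 Clock-deficient arrays at ZT0, ZT4, ZT12 and ZT16 served for the same contrast in the absence of Clock.

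The circadian oscillator of a mammalian cell is a loop of transcription. CLOCK and ARNTL (also called BMAL1) bind E-boxes and activate Per, Cry and Nr1d genes, PER and CRY proteins then repress that activity, and NR1D1 and NR1D2 repress Arntl through ROR elements. The PAR bZIP factors DBP, TEF and HLF carry the rhythm to D-box promoters. In the kidney the oscillator is known to pace transport and metabolism, and systemic signals such as glucocorticoid hormone, which in nocturnal rodents peaks around the onset of activity, add to it.

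Values are log2 expression, so a difference of 1 is a doubling. Each of the 13967 genes tested is represented by its brightest probe set. Differences below are early night minus early day with the standard error of the fit. A gene is called where limma's p, adjusted by Benjamini and Hochberg over all genes tested, is under 0.05. Over whole arrays, correlations between arrays of one side lay between 0.9828 and 0.9939. The second ZT4 pool read above every other wild-type array in the mean level of 15 of 43 gene lists. Its thick ascending limb markers had a list mean of 11.16, against 10.87 to 11.04 in the other arrays. Its distal convoluted tubule markers had one of 9.80 (9.42 to 9.75) and its sodium transporters one of 10.51 (10.29 to 10.43). Only 2 of 6 blood markers were tested, Alas2 and Slc4a1, and their mean was also highest in this pool (7.85, against 7.22 to 7.71). Of these, Slc4a1 read 8.24 there, against 8.22 in the second ZT0 pool. The mean of 11 immune cell markers was barely above the next array (7.34, against 6.94 to 7.33). The same pool differed from its side in several genes known to differ between the sexes. The mean of the list of such genes, 9.93, lay within the 9.53 to 10.11 of the other wild-type arrays. Cyp4a14, an omega-hydroxylase, read 10.997 there against 8.98 to 9.71 in the other early day arrays. Outside early day it also reached 10.53 in the first ZT16 pool and 10.63 at ZT8. Cyp4a12a, of the same list, read 8.55 in the second ZT4 pool, within the 7.76 to 9.83 of the other early day arrays. Slc7a12, an amino acid transporter, read 10.48 in this pool against 6.93 to 9.08 in the other early day arrays. The part of these differences in the results was not tested, and counts without this pool are given below.

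Early night differed from early day in 202 genes, 1.45% of those tested. Of these, 92 were higher (0.659%) and 110 were lower (0.788%) in early night, and 1613 genes had an unadjusted p under 0.05. The median difference over all genes was -0.007. Most changes were modest. At least 1 log2 separated the sides in 9 higher and 4 lower genes, and at least 0.5 log2 in 48 higher and 33 lower genes. All 4 early night arrays lay above all 4 early day arrays in 70 of the 92 higher genes, and below them in 93 of the 110 lower genes. Over all genes tested, such separation occurred upward in 296 (2.12%) and downward in 462 (3.31%). The number of calls depended on single arrays. It was 72 without the second ZT0 pool, 114 without the second ZT4 pool, 101 without the second ZT12 pool, and 120 and 119 without the first and second ZT16 pools. Without 1 array at a time, 62 genes (31 higher and 31 lower) were called in all 8 fits.

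Repressors of the clock had the largest share of called members among the 43 gene lists looked at. Of 10 measured, 8 were higher, and their median difference was 0.83. Per2, a core repressor, read 6.65 and 6.57 in the ZT0 pools, 6.81 and 6.26 in the ZT4 pools, 8.31 and 8.23 in the ZT12 pools, and 8.31 and 8.17 in the ZT16 pools. Every early night array was above every early day array, with a difference of 1.68 ± 0.14, or 3.21-fold (limma adjusted p = 2.58e-05). Per3 rose from 5.89 and 6.02 at ZT0 and 6.70 and 6.03 at ZT4 to 7.62 and 7.53 at ZT12 and 6.86 and 7.06 at ZT16. Its sides did not overlap, and the difference was 1.10 ± 0.16 (adjusted p = 0.0025). The cryptochromes, which inhibit CLOCK and ARNTL directly, followed different courses within the sides. Cry1 read 6.90 and 6.92 at ZT0 and 5.45 and 6.09 at ZT4, against 7.06 and 6.99 at ZT12 and 7.51 and 7.65 at ZT16. Its ZT0 arrays lay just under those of ZT12, and the difference was 0.96 ± 0.13 (adjusted p = 0.00125). Cry2 lay between 6.79 and 7.23 in early day and between 7.79 and 8.09 in early night, a difference of 0.87 ± 0.10 (adjusted p = 0.000378). Bhlhe40, a repressor that competes for E-boxes, rose by 0.53 ± 0.09 without overlap (adjusted p = 0.00903).

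In the other repressors the 4 h between the times of a side moved values as far as the sides did. Ciart, an inhibitor of CLOCK and ARNTL, had the largest difference of all called genes, 1.95 ± 0.40 (adjusted p = 0.0246), yet its sides overlapped. It read 4.96 and 5.11 in the ZT0 pools, 6.44 and 5.69 in the ZT4 pools, 9.33 and 8.45 in the ZT12 pools, and 5.85 and 6.37 in the ZT16 pools. Only the ZT12 arrays were high, and the call was lost when any of 6 arrays was left out. A second probe set of Ciart differed by 1.90. Per1, a light- and hormone-sensitive repressor, read 6.87 and 6.89 in the ZT0 pools, 7.52 and 7.80 in the ZT4 pools, 8.31 and 8.32 in the ZT12 pools, and 7.53 and 7.61 in the ZT16 pools. ZT4 and ZT16 shared one range, the difference was 0.68 ± 0.12 (adjusted p = 0.00793), and ZT16 against ZT4 alone gave -0.089. Nr1d2 rose by 0.78 ± 0.17 (adjusted p = 0.0339) with overlapping sides and was called in 1 of the 8 fits without an array. Its paralog Nr1d1, the main repressor of Arntl, read 8.29 and 8.47 in the ZT0 pools, 10.04 and 9.22 in the ZT4 pools, 9.04 and 9.15 in the ZT12 pools, and 7.25 and 7.55 in the ZT16 pools. It was high at ZT4 and low at ZT16, and the difference of -0.76 ± 0.21 did not pass (adjusted p = 0.101). Bhlhe41 did not pass either (0.71 ± 0.21, adjusted p = 0.146). Without the second ZT4 pool, 6 repressors were called higher and 1 lower.

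The activators were measured in 3 genes, of which 1 was called. Arntl read 8.41 and 8.46 in the ZT0 pools, 7.20 and 7.74 in the ZT4 pools, 5.69 and 5.58 in the ZT12 pools, and 7.37 and 7.28 in the ZT16 pools. Highest at ZT0 and lowest at ZT12, it overlapped between ZT4 and ZT16, and it fell by 1.48 ± 0.15 into the night (adjusted p = 0.00018). This call held in all 8 fits that leave out an array. Clock read 9.16 and 9.10 in the ZT0 pools, 8.81 and 8.91 in the ZT4 pools, 8.63 and 8.47 in the ZT12 pools, and 8.87 and 8.93 in the ZT16 pools, a difference of -0.27 ± 0.07 that did not pass (adjusted p = 0.0609). Rora, an activator of Arntl, differed by 0.18 ± 0.10 (adjusted p = 0.497). Of the D-box factors, Dbp, Tef and Hlf were called higher, and Nfil3, the repressor of the same sites, was not (-0.20 ± 0.17, adjusted p = 0.705). Dbp read 7.10 and 7.03 in the ZT0 pools, 9.10 and 7.99 in the ZT4 pools, 10.50 and 10.60 in the ZT12 pools, and 8.20 and 8.37 in the ZT16 pools. Both ZT12 arrays stood above the rest, the difference was 1.61 ± 0.37 (adjusted p = 0.0406), and it was called in 1 of 8 fits without an array. Tef rose by 0.78 ± 0.14 (adjusted p = 0.00916, called in all 8 fits) and Hlf by 0.50 ± 0.10 (adjusted p = 0.0246, called in 1 of 8). Without the second ZT4 pool, 1 of these 4 genes was called.

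**Figure D1:**
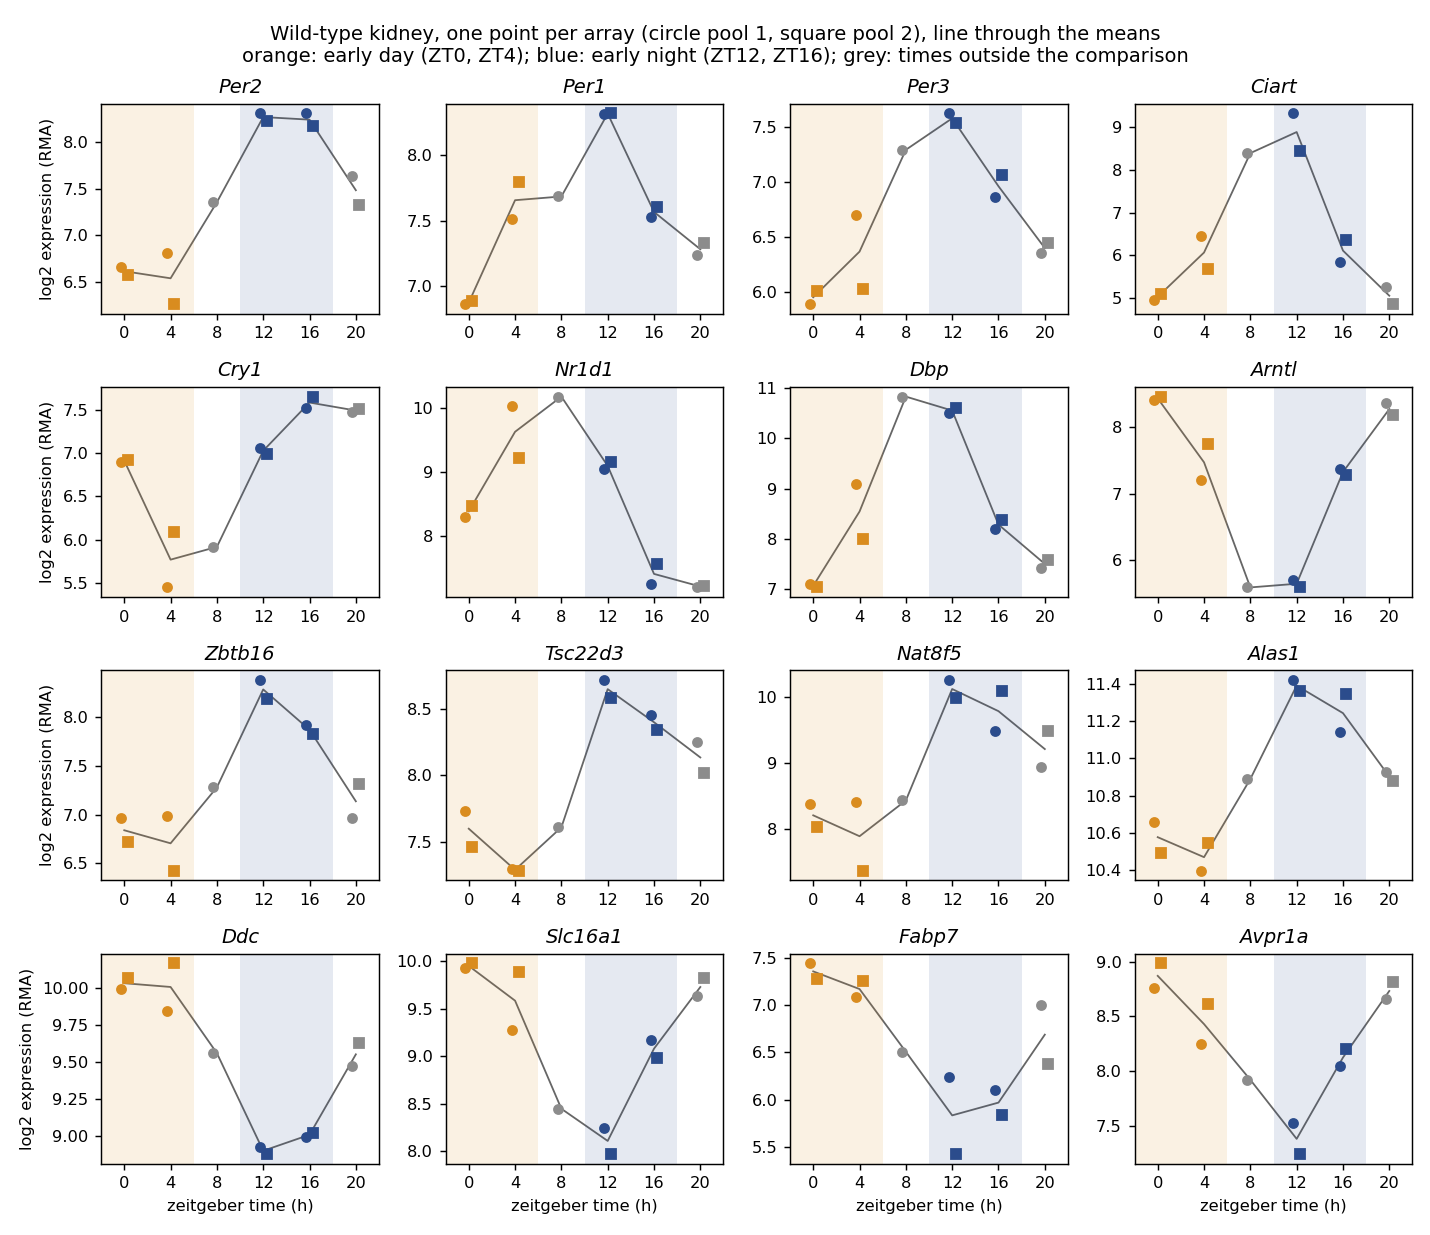
Log2 expression (vertical axis, RMA) against zeitgeber time in hours (horizontal axis) for 16 genes in wild-type kidney. Each point is 1 array, circles for pool 1 and squares for pool 2, the line joins the means, and orange, blue and grey mark early day, early night and the times outside the comparison. Per2 and Ddc are level within each side and far apart between sides, whereas Ciart, Dbp, Nr1d1 and Arntl change as much within a side.

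Promoters of some of these genes hold motifs that the loop is known to use. Shown are 4 called repressors picked because they hold a match, although the sides of Ciart and Per1 overlapped. RefSeq promoters of GRCm38.p6 (250 bases before to 50 after the start) were matched by symbol for 11078 of the genes tested. Both strands were searched, and capitals mark the E-box CACGTG or, in Per3, the D-box TTANGTAA. The windows are chr3:95882179-95882478 on the minus strand for Ciart, chr11:69098699-69098998 on the plus strand for Per1, chr10:85185005-85185304 on the minus strand for Cry1 and chr4:151044616-151044915 on the minus strand for Per3. Ciart holds 3 E-boxes, Per1 and Cry1 hold 1 each, and Per3 holds 2 D-boxes.
Ciart: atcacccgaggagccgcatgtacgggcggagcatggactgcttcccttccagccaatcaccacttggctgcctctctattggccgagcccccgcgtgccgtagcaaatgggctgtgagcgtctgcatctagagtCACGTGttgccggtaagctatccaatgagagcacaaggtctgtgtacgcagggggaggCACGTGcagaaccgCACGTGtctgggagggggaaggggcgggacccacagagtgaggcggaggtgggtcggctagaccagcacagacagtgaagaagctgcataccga
Per1: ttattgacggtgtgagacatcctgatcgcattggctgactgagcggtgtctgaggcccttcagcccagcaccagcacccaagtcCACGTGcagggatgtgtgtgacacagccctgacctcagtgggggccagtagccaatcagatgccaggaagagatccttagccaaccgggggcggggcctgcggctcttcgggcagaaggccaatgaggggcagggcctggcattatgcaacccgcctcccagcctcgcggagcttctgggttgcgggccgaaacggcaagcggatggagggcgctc
Cry1: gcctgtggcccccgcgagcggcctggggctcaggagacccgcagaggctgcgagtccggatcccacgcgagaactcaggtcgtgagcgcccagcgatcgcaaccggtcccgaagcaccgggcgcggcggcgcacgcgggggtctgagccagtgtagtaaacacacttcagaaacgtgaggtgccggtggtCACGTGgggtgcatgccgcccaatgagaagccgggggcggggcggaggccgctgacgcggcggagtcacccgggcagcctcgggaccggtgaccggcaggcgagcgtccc
Per3: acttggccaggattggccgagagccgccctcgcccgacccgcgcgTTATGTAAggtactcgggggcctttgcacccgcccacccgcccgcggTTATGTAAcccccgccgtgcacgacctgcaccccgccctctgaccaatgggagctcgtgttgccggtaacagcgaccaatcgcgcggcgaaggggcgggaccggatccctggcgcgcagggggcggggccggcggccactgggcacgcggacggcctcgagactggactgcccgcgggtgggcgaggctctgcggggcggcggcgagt

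An E-box was found for 15 of the 80 higher genes with a promoter (18.8%), for 6 of the 90 lower ones (6.67%) and for 1253 of all 11078 (11.3%). A D-box was found for 6 higher genes (7.5%), 2 lower genes (2.22%) and 201 of all genes (1.81%). The ROR element TAGGTCA was found for 2 higher genes (2.5%), 6 lower genes (6.67%) and 273 of all genes (2.46%). Among 17 called genes of the clock and its output with a promoter, 6 held an E-box (35.3%), 1 a D-box (5.88%) and 1 a ROR element (5.88%). These shares are descriptions without a test, and no match says only that the letters are not in this window. Promoters of Arntl and Fabp7 are shown because these genes had the largest falls and each holds 1 ROR element, in capitals. Their windows are chr7:113207261-113207560 on the plus strand for Arntl and chr10:57784673-57784972 on the plus strand for Fabp7.
Arntl: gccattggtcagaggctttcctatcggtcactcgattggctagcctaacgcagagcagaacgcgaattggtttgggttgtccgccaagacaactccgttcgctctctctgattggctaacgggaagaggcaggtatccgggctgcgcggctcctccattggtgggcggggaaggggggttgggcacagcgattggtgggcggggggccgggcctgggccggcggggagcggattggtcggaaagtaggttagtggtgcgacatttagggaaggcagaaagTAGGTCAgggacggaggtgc
Fabp7: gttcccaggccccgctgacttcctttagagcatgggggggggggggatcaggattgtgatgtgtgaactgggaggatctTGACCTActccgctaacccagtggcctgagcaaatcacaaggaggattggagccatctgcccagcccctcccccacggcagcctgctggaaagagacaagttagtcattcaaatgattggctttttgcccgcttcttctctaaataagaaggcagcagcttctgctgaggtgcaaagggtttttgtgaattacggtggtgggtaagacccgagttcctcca

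Among 12 measured clock output genes, 6 were higher and 3 were lower in early night, with a median of 0.36. Wee1, the kinase that delays entry into mitosis, lay between 7.74 and 8.09 in early day and between 8.68 and 9.21 in early night, a rise of 1.04 ± 0.16 (adjusted p = 0.00449). Tspan4, a membrane tetraspanin, rose by 0.80 ± 0.10 (adjusted p = 0.000635). Alas1, the rate-limiting enzyme of heme synthesis, read 10.39 to 10.66 in early day and 11.14 to 11.42 in early night, and rose by 0.80 ± 0.09 (adjusted p = 0.000276). In none of these 3 genes did the sides overlap. Nampt, which makes the NAD precursor nicotinamide mononucleotide, rose by 0.52 ± 0.09 (adjusted p = 0.00845), the 1 call among 11 NAD genes. Usp2, a deubiquitinase tied to distal sodium transport, rose by 0.74 ± 0.12 (adjusted p = 0.00544). Lower members were Ddc, Dtx4 and Rhobtb1, and 7 of the 12 members were called in every fit without 1 array. Rhobtb1 was low at ZT12 (8.12 and 7.88) but not at ZT16 (9.12 and 9.11), against an early day mean of 8.96. Upp2, a higher member, was high at ZT12 (8.67 and 8.63) but not at ZT16 (7.43 and 7.64), against an early day mean of 7.37. These 2 calls held in 5 and 2 of the 8 fits.

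Genes that respond to glucocorticoid hormone were the next group on the night side, with 4 of 14 higher, 0 lower and a median of 0.13. Zbtb16, a zinc finger regulator, read 6.96 and 6.71 in the ZT0 pools, 6.99 and 6.42 in the ZT4 pools, 8.39 and 8.19 in the ZT12 pools, and 7.92 and 7.83 in the ZT16 pools. Its early night arrays all stood above those of early day, by 1.31 ± 0.20 (adjusted p = 0.00452). Tsc22d3, known as GILZ, a steroid-induced regulator of immune signals and of the epithelial sodium channel, read 7.74 and 7.46 in the ZT0 pools, 7.30 and 7.28 in the ZT4 pools, 8.72 and 8.58 in the ZT12 pools, and 8.46 and 8.35 in the ZT16 pools. The gap between sides was wider than the range of either, and the difference was 1.08 ± 0.10 (adjusted p = 9.31e-05). Fkbp5, a co-chaperone of the glucocorticoid receptor, rose by 0.67 ± 0.11 without overlap (adjusted p = 0.00455). Sult1a1, a sulfotransferase, rose by 0.40 ± 0.09 with overlap (adjusted p = 0.041), and that call held in 1 of 8 fits without an array. The other 10 members did not pass the test, and 3 were called without the second ZT4 pool. Among 15 immediate early genes 0 were called, with 1 at an unadjusted p under 0.05. Among the adrenal markers, 8 of 9 were below the expression filter, with single arrays between 2.77 and 5.40. The 1 marker above it, Th, lay between 5.38 and 5.72 in early day and between 5.36 and 5.91 in early night.

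Further large rises came from genes of other functions. Nat8f5, an N-acetyltransferase of the Nat8 family, read 8.38 and 8.03 in the ZT0 pools, 8.41 and 7.36 in the ZT4 pools, 10.26 and 9.98 in the ZT12 pools, and 9.48 and 10.09 in the ZT16 pools. All early night arrays were above all early day arrays, by 1.91 ± 0.27 or 3.75-fold (adjusted p = 0.00198). Its family holds near-identical copies whose signal the probes may share. Angptl7, a secreted angiopoietin-like protein, rose by 1.29 ± 0.19 (adjusted p = 0.00262). Gadd45g, a stress-induced growth arrest gene, rose by 0.97 ± 0.20 (adjusted p = 0.0246), and Lonrf1 by 0.80 ± 0.16 (adjusted p = 0.0174). Of the 12 largest rises with separate sides, 10 were called in all 8 fits without an array, the exceptions being Gadd45g (2 of 8) and Lonrf1 (4 of 8). Pck1, the gluconeogenic enzyme of the proximal tubule, lay between 11.91 and 12.22 in early day and between 12.48 and 12.71 in early night, a rise of 0.57 ± 0.07 (adjusted p = 0.00125), the 1 call among 18 genes of glucose handling. Slc16a14, an orphan member of the monocarboxylate transporter family, rose by 0.59 ± 0.09 (adjusted p = 0.00351).

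After Arntl, the largest falls into the night without overlap were in Fabp7, Slc16a1, Ddc and Avpr1a. Fabp7, a fatty acid binding protein, read 7.44 and 7.27 in the ZT0 pools, 7.08 and 7.25 in the ZT4 pools, 6.25 and 5.42 in the ZT12 pools, and 6.10 and 5.84 in the ZT16 pools. Early night was lower in every array, by -1.36 ± 0.22 (adjusted p = 0.00544), with early day 2.57-fold above it. Slc16a1, the lactate transporter MCT1, read 9.92 and 9.97 in the ZT0 pools, 9.28 and 9.89 in the ZT4 pools, 8.25 and 7.97 in the ZT12 pools, and 9.17 and 8.98 in the ZT16 pools. It was lowest at ZT12, ZT16 came close to the first ZT4 array, and the difference was -1.17 ± 0.12 (adjusted p = 0.000276). Ddc, the decarboxylase that makes dopamine from L-DOPA in the proximal tubule, read 9.997 and 10.07 in the ZT0 pools, 9.85 and 10.17 in the ZT4 pools, 8.92 and 8.88 in the ZT12 pools, and 8.99 and 9.02 in the ZT16 pools. Arrays of a side lay close together against the gap between sides, and the difference was -1.07 ± 0.08 (adjusted p = 2.23e-05). Avpr1a, the V1a vasopressin receptor, read 8.76 and 8.98 in the ZT0 pools, 8.25 and 8.61 in the ZT4 pools, 7.52 and 7.24 in the ZT12 pools, and 8.04 and 8.21 in the ZT16 pools. It was lower in early night by -0.90 ± 0.11 (adjusted p = 0.000865), the 1 call among 15 water, urea and osmolyte genes.

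The other 8 of the 12 largest falls were smaller. Cldn1, a tight junction claudin, lay between 7.70 and 8.12 in early day and between 6.83 and 7.39 in early night, a difference of -0.81 ± 0.13 (adjusted p = 0.00442). Itgb6, an epithelial integrin chain, lay between 10.33 and 10.71 in early day and between 9.53 and 9.98 in early night, a difference of -0.80 ± 0.08 (adjusted p = 0.000102). Ppard, a nuclear receptor that drives fatty acid oxidation, differed by -0.75 ± 0.10 (adjusted p = 0.00125), the 1 call among 19 genes of that pathway. Ethe1, a mitochondrial sulfur dioxygenase, differed by -0.81 ± 0.14 (adjusted p = 0.00907), and Acmsd, which diverts tryptophan breakdown away from NAD synthesis, by -0.74 ± 0.10 (adjusted p = 0.00185). Dcdc2a (-0.80 ± 0.09), Dtx4 (-0.73 ± 0.10) and Lrat (-0.73 ± 0.09), the enzyme that esterifies retinol, completed the group. All but Ethe1, which was lost without the second ZT0 pool, were called in each of the 8 fits. Among 20 genes of amino acid breakdown, Ddc, Acmsd and the oxidase Hao2 were lower and Gldc, of the glycine cleavage system, was higher (0.43 ± 0.09, adjusted p = 0.0339, called in 0 of 8 fits without an array).

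Calls were rare over all genes (1.45%, with 1613 of 13967 at an unadjusted p under 0.05), and 22 of the 43 lists held 0. A short list without a call, of ion transport or other genes, is therefore not set apart from all genes. Of 12 sodium transporters 0 were called in limma, with 1 at an unadjusted p under 0.05 and a median of -0.02. The largest values among them were 0.14 ± 0.09 for the exchanger Slc9a2 and 0.13 ± 0.05 for Atp1b1, a subunit of the sodium pump. Cldn10, a claudin of paracellular cation transport, was the 1 call among 17 potassium, calcium, magnesium and phosphate genes (-0.33 ± 0.07, adjusted p = 0.0246). That call held in 3 of 8 fits without an array and was lost without the second ZT4 pool (adjusted p = 0.114), in which the list of its segment, the thick ascending limb, was highest. Slc4a1, the anion exchanger of intercalated and red cells, differed by -0.27 ± 0.06 (adjusted p = 0.0399, called in 1 of 8 fits). Aqp2, the vasopressin-regulated water channel, differed by 0.10 ± 0.09 (adjusted p = 0.702). In limma, 0 members were called among 12 blood pressure genes (2 at an unadjusted p under 0.05), 13 eicosanoid enzymes (2), 17 organic ion transporters (5), 20 phase I and II enzymes (3) and 20 genes of cholesterol and lipid synthesis (6). The same held for 20 ribosome biogenesis genes (2), 14 ribosomal proteins (0), 20 proteasome subunits (1) and 19 subunits of oxidative phosphorylation (0). Of the cell type markers, 0 of 14 proximal tubule, 0 of 9 principal cell, 0 of 9 endothelial and 0 of 11 immune markers were called, with 1, 1, 2 and 0 at an unadjusted p under 0.05. Of 15 genes of extracellular matrix and stroma 0 were called in limma, with 4 at an unadjusted p under 0.05 and a median of -0.19. Cldn10 and Slc4a1, named above, are the called members of the thick ascending limb and intercalated cell lists. In pooled tissue, fewer cells of a type and less RNA per cell cannot be told apart.

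**Figure D2:**
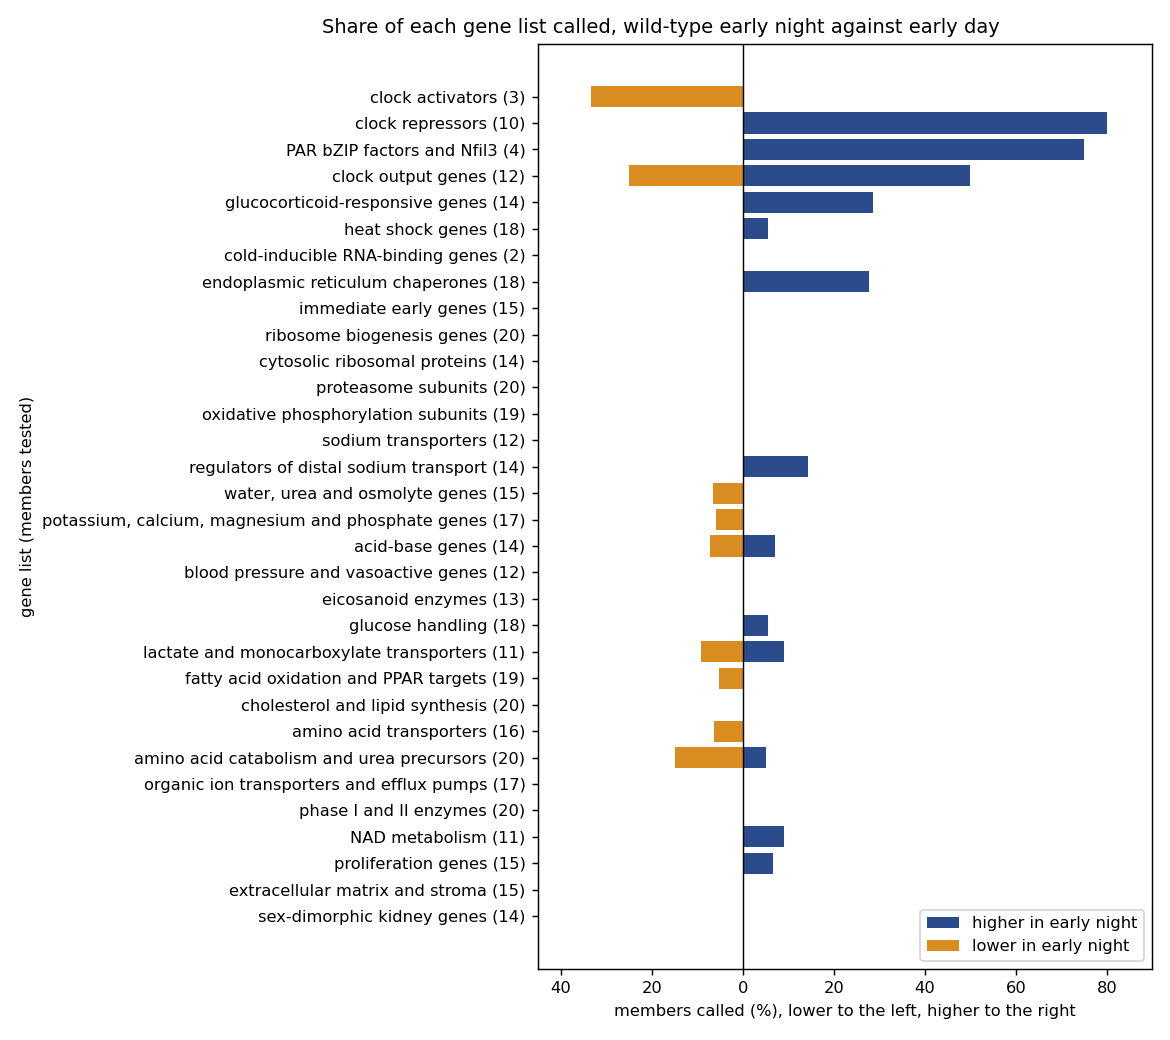
Percentage of the tested members of each gene list (vertical axis, number tested in brackets) that were called in wild type, with members lower in early night to the left and higher to the right. Clock repressors (8 of 10) and PAR bZIP factors (3 of 4) reach furthest to the right. The lists of sodium transporters, organic ion transporters, ribosomal proteins, proteasome subunits and oxidative phosphorylation hold no call. Of all genes tested, 1.45% were called.

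The list of endoplasmic reticulum chaperones also holds stress genes that are not chaperones themselves, such as Herpud1 and Xbp1. Of its 18 members, 5 were called higher in early night (0.659% of all genes were) and 0 lower. The median difference was 0.14, and 12 of the 18 lay above 0. Among chaperones not called, Hsp90b1 differed by -0.055 and Calr by -0.198. Herpud1, which serves the degradation of misfolded proteins, read 11.12 to 11.34 in early day and 11.77 to 11.90 in early night, a rise of 0.61 ± 0.08 (adjusted p = 0.00137). It was the member called in all 8 fits without an array. Creld2, Manf, Xbp1 and Hspa5 were called with differences of 0.48, 0.40, 0.34 and 0.28. These calls held in 6, 4, 1 and 1 of the 8 fits. Without the second ZT4 pool 3 members were called. Several members differed more between ZT12 and ZT16 than between the sides. Hspa5, the main chaperone of the compartment (BiP), read 11.34 and 11.37 at ZT12 and 12.14 and 12.28 at ZT16, a difference of 0.85 ± 0.09 (adjusted p = 0.000905). Hyou1, its nucleotide exchange factor, read 9.23 and 9.19 at ZT12 and 10.09 and 10.23 at ZT16, a difference of 0.95 ± 0.09 (adjusted p = 0.000153). In both genes the ZT12 arrays lay within or below the early day range, and the ZT16 arrays lay above it. Creld2 rose by 1.10 ± 0.12 and Manf by 0.93 ± 0.12 between these times. Of the 18 members, 7 were called between ZT12 and ZT16, all upward, and 18 had a positive difference, against 43% of all genes.

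Among the 18 listed heat shock genes, Hsph1 was the 1 call (0.41 ± 0.09, adjusted p = 0.0275, called in 2 of 8 fits without an array). It read 10.28 and 10.23 at ZT12 and 10.81 and 10.85 at ZT16.

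Over all genes, ZT16 differed from ZT12 in 23 (0.165%), with 14 higher (0.1%) and 9 lower (0.0644%) at ZT16 and 1334 at an unadjusted p under 0.05. That count was 6 without the first ZT12 pool, 8 without the second, 6 without the first ZT16 pool and 50 without the second. Arntl rose by 1.69 ± 0.21 (adjusted p = 0.00235) and Slc16a1 by 0.97 ± 0.18 (adjusted p = 0.0409), both back toward the early day level. Nr1d1 fell by 1.70 ± 0.29 (adjusted p = 0.033) and Cirbp, an RNA-binding protein induced by cooling, by 0.80 ± 0.14 (adjusted p = 0.0246). Rhobtb1 rose by 1.11 ± 0.10 (adjusted p = 0.000153). On the other side of the day, limma called 0 genes (0.0%) for ZT4 against ZT0, while 716 had an unadjusted p under 0.05. Without the first ZT4 pool 13 genes were called there.

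Promoters of Hspa5 and Creld2 are shown because both genes were called in early night and both hold the ER stress element. It was searched as CCAAT followed 9 bases later by CCACG, on both strands, and capitals mark these letters. The windows, from RefSeq GRCm38.p6, are chr2:34771840-34772139 on the plus strand for Hspa5 and chr15:88819396-88819695 on the plus strand for Creld2. Of the 16 members of the list with a promoter, 7 held the element (43.8%), against 17 of all 11078 genes (0.153%).
Hspa5: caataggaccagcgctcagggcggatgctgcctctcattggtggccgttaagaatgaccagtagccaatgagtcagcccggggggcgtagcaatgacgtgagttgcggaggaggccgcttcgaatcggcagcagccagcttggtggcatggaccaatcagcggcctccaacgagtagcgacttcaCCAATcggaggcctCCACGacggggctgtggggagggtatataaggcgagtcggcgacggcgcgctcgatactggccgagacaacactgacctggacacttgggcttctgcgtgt
Creld2: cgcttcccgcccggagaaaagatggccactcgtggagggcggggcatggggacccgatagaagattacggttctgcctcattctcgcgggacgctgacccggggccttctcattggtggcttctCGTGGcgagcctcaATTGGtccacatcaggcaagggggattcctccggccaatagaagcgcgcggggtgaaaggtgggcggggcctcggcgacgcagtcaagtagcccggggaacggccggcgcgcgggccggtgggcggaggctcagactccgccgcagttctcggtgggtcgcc

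**Figure D3:**
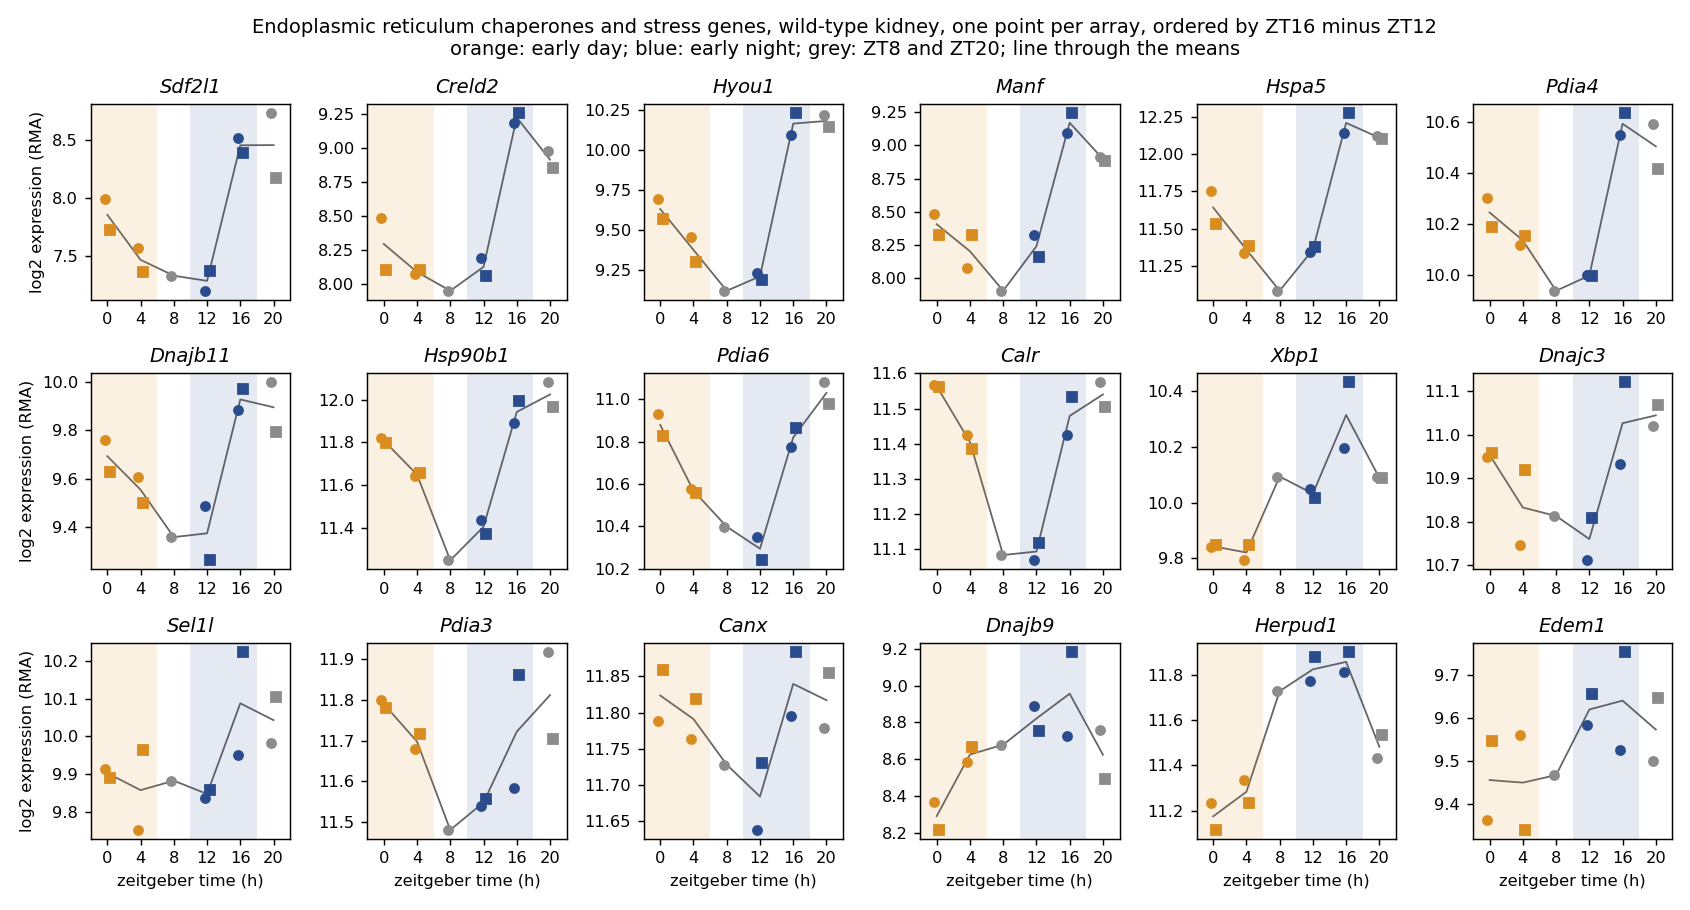
Log2 expression (vertical axis, RMA) against zeitgeber time in hours for the 18 endoplasmic reticulum genes in wild-type kidney, ordered by ZT16 minus ZT12. Each point is 1 array, and orange, blue and grey mark early day, early night and the other times. In the top row each gene is low at ZT12 and near its highest at ZT16, while Herpud1 is high at both.

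Values at ZT8 and ZT20, which the comparison did not use, place the 202 genes in the rest of the cycle. Of the 92 higher genes, 45 were nearer the early night mean at ZT8 and 36 at ZT20, so that 33 were night-like at ZT8 and day-like at ZT20, 24 were the reverse, 12 were night-like at both and 23 at neither. Of the 110 lower genes, 47 were night-like at ZT8 and day-like at ZT20, 23 were the reverse, 14 were night-like at both and 26 at neither. ZT8 rests on 1 array. Dbp read 10.83 at ZT8, above all its early night values, and Arntl read 5.58 there, at its ZT12 level. Ppard read 7.13 at ZT8, in its early night range, and 8.15 and 8.21 at ZT20, in its early day range. Tsc22d3 read 7.61 at ZT8 and 8.25 and 8.02 at ZT20.

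In Clock-deficient kidney the same contrast gave 5 called genes (0.0358%), all higher in early night, with 701 at an unadjusted p under 0.05. They were Creld2 (0.77 ± 0.10), Slc16a14 (0.66 ± 0.10), Hyou1 (0.61 ± 0.07), Hspa5 (0.60 ± 0.07) and Alas1 (0.60 ± 0.10), with adjusted p from 0.00463 to 0.0446. Members of the chaperone list accounted for 3 of the 5, and 18 of its 18 members had a positive difference in the knockout. The count was 3 without the first ZT0, the first ZT4 or the second ZT12 knockout pool. The knockout ZT16 group is 1 pool and is assumed to vary like the others. The direction of the wild type recurred in the knockout for 85 of the 92 higher genes, where 47.7% of all genes lay above 0, and for 75 of the 110 lower genes, where 52.3% of all genes lay below 0. Sizes were smaller: the higher genes had a median difference of 0.51 in wild type and 0.19 in the knockout, and the lower genes -0.41 and -0.06. Since the genes were chosen for their size in wild type, the smaller size in the knockout carries no test. In some higher genes, the second ZT12 knockout pool stood apart from the other knockout arrays of the contrast. Dbp read 9.39 there against 7.32 to 8.12 in the others, Ciart 7.38 (4.64 to 5.30) and Zbtb16 8.29 (6.22 to 7.08). Tsc22d3 read 8.46 there, but also 8.30 and 8.05 in the other knockout early night arrays, against 7.36 to 7.75 in early day. The part of this pool in the counts above was not tested.

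The difference between genotypes was called in 2 genes (0.0143%), and 759 had an unadjusted p under 0.05. Arntl in the knockout differed by 0.31 ± 0.17 between sides, and wild type minus knockout was -1.79 (adjusted p = 0.0133). Ddc differed by -0.15 ± 0.09 in the knockout, and wild type minus knockout was -0.92 (adjusted p = 0.0153). Both calls were lost without the second wild-type ZT0 pool, the second wild-type ZT12 pool or the second knockout ZT4 pool, and 1 of them without the first knockout ZT0 pool. The count rose to 9 without the first wild-type ZT4 pool, 5 without the second and 4 without the first wild-type ZT16 pool. Ppard missed the threshold (-0.95, adjusted p = 0.0565), with 0.20 ± 0.11 in the knockout. Per3 had -0.01 ± 0.18 in the knockout (adjusted p of the difference = 0.267), and Slc16a1 had -0.07 ± 0.14 (0.109). Among the 12 largest rises the adjusted p of the genotype difference ran from 0.24 to 0.943. Fkbp5, with 0.57 ± 0.12 in the knockout and 0.67 in wild type, gave 0.977, and Tsc22d3, with 0.65 ± 0.11, gave 0.759. A p above the threshold does not show that the genotypes act alike. Slc7a12, of the list of genes known to differ between the sexes, read 10.32 to 10.78 in the 7 knockout arrays. In the 8 wild-type arrays it read 6.93 to 10.48. Cyp2e1, of the same list, overlapped between the genotypes (11.71 to 12.72, against 12.36 to 13.02 in wild type). Sex is not labelled, and its part in the genotype difference was not tested. Clock itself was measured by a probe set whose place relative to the deleted part is not given, so it does not check the genotype labels.

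**Figure D4:**
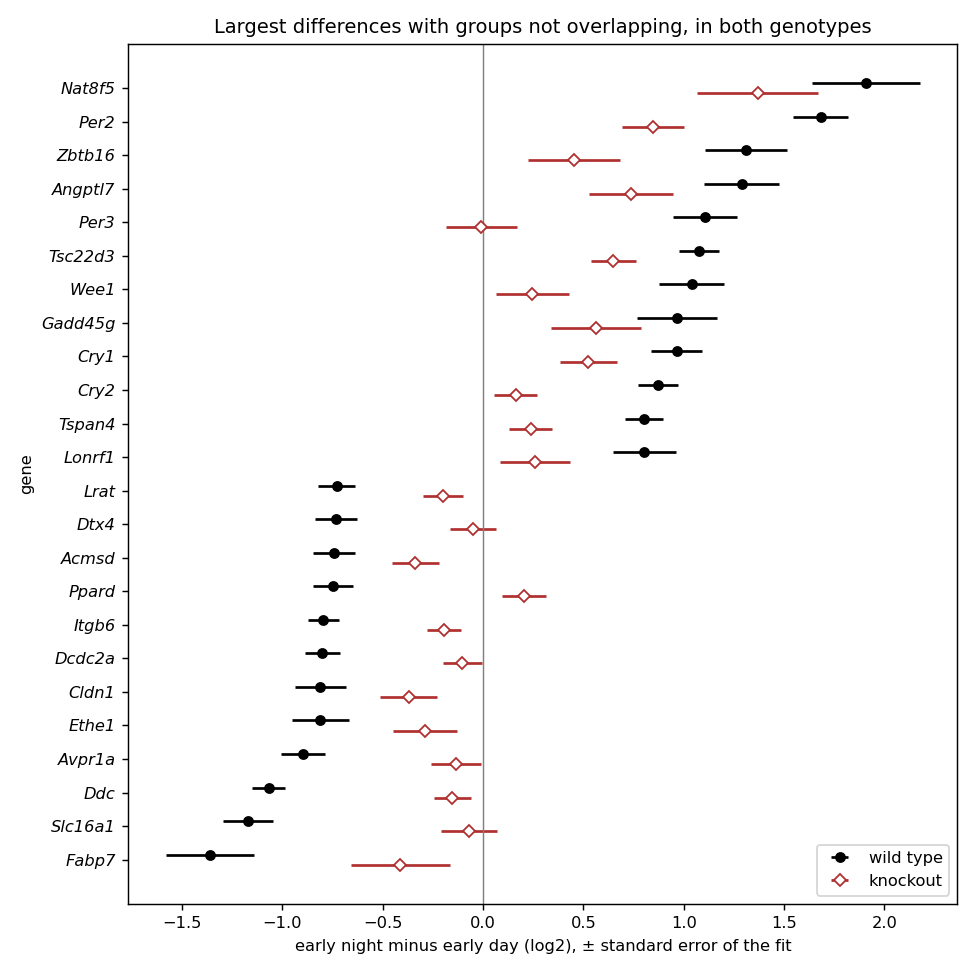
Early night minus early day in log2 (horizontal axis, points with the standard error of the fit) for the 12 largest rises and 12 largest falls whose wild-type sides did not overlap (vertical axis, genes), in wild type (black circles) and Clock-deficient kidney (open diamonds). Every gene's point is farther from 0 in wild type, where the genes were chosen. Nat8f5 has the largest knockout value (1.37), which comes from the ZT12 pools alone. In the knockout these read 7.96 and 9.19, against 5.49 to 6.10 in early day and 5.72 in the ZT16 pool.

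Probe sets of a gene mostly moved together. Of the called genes, 13 have another probe set above the expression floor, and in 12 of them all moved one way. Gnb1l was the exception, at -0.36 in the brightest probe set (adjusted p = 0.0328) and 0.07 in the other.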

How the data were processed

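Per the submitters' processing notes, the authors used RMA, and the deposited table holds one log2 value for each probe set and array. RMA forces all arrays onto a common distribution, which hides a shift shared by most genes and flattens differences of dim probe sets. The software release, genome build and scan days were not given in the sources used here. Of 35556 probe sets, the platform annotation gives 1 symbol to 21789 and several to 1621, and 12146 are unnamed here. Of the 1-symbol sets, 21698 matched RefSeq of GRCm38.p6 by gene number. Probe sets under the 30th percentile of the mean over 22 arrays were left out. Array medians lay between 5.88 and 6.01, and the number of arrays limits the precision.

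limma 3.58.1 in R 4.3.3 fitted the 12 group means to all 22 arrays (10 residual degrees of freedom), tested beforehand on simulated data. The contrast was the mean of ZT12 and ZT16 minus the mean of ZT0 and ZT4. Named genes are the 12 largest called rises and falls with sides not overlapping, all members of the clock activator, repressor and PAR bZIP lists, up to 4 called members of each other list (the largest differences as values where fewer than 2 were called), called genotype differences, and genes whose probe sets disagree. Genes called only between ZT12 and ZT16 or only in the knockout, and values named as examples of an array, were added after their values were seen. The comparison, the 43 lists and the rules were chosen with earlier results of these data known. Alternatives covered filters, normalization, array weights, spread, subsets of arrays, pool number and each array left out.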

Additional observations from a re-analysis of the deposited data

Results flagged for a closer look

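In 10 of 214 groups of 4 arrays, over the named genes, 1 array stood apart from the other arrays of its side by more than Dixon's limit, and chance flags about 1 in 20 such groups. Each side holds 2 times, so an array can stand apart for its time. The first ZT4 pool was the array in 7 of the 10. It read 9.45 in Tef against 8.69 to 8.73 in the other early day arrays, 9.79 in Xbp1 against 9.84 to 9.85, and 7.42 in Dkc1, a ribosome biogenesis gene, against 7.70 to 7.73. It read 12.22 in Gatm, the first enzyme of creatine synthesis, against 12.39 to 12.41, and 7.88 in Fdps, a cholesterol synthesis gene, against 8.05 to 8.08. In Dtx4 it read 7.94 against 8.27 to 8.32, and in Slc16a1 9.28 against 9.89 to 9.97. The first ZT0 pool read 8.49 in Creld2 against 8.08 to 8.11, and 11.15 in Dnaja1, a heat shock gene, against 10.78 to 10.83. The first ZT16 pool read 10.76 in Aqp2 against 10.52 to 10.54 in the other early night arrays.

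The difference between sides was unlike in the genotypes for Arntl (wild type minus knockout -1.79 log2) and for Ddc (-0.92 log2), both by limma's test of that difference.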

How the results depend on the processing

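The 202 calls (92 higher, 110 lower) became 34 (20 and 14) with the 8 arrays as 2 groups, 55 (32 and 23) with these 8 arrays only, 84 (48 and 36) with wild-type arrays only, 127 (60 and 67) with array weights, 81 (48 and 33) at a minimum of 0.5 log2, and 69 (24 and 45) for ZT16 against ZT4 alone. Within pool 1 or pool 2 alone, 0 were called in limma (0 higher and 0 lower), with 211 and 1049 at an unadjusted p under 0.05. Without a filter 73 were lower. Leaving out 1 array gave 72 to 281 calls, 37 to 111 higher and 35 to 170 lower. Without the first ZT4 pool 281 were called, 163 of them among the 202. Knockout calls (5) were 8 with array weights, a 50th percentile filter, repeated quantile normalization or a trended robust spread, 3 without a filter, and 3 to 5 without 1 array. The genotype difference gave 0 to 9 calls without 1 array. ZT4 against ZT0 (0 calls) gave 2 with array medians subtracted, a 50th percentile filter or a trended robust spread, 1 with repeated quantile normalization, and 0 to 13 without 1 array. ZT16 against ZT12 (23 calls) gave 13 with array weights, 44 with a 50th percentile filter, 36 with repeated quantile normalization, 55 with a trended robust spread, and 6 to 50 without 1 array. Fewer arrays lower the residual degrees of freedom. The cause of the other shifts was not tested.

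With the pool number as a replicate block, 249 genes were called, 200 of them among the 202, and ZT16 against ZT12 gave 44. Pool numbers were not taken to pair the samples, since deviations of pool 1 from its time mean correlated between -0.411 and 0.472 over 6 pairs of wild-type times. Yet pool 1 read above pool 2 in all 10 groups with 2 pools in 329 genes and below it in 205 (3.82% of genes together, 1 of them among the 202 calls). These include 6 of 14 ribosomal proteins, such as Rps14 (by 0.35 to 0.60), and Cox4i1 (by 0.18 to 0.37). For ZT16 against ZT4 alone the sign turned in Dbp (-0.26), Nr1d2 (-0.19) and Per1 (-0.089), and for ZT12 against ZT0 alone in Creld2 (-0.169), Hsph1 (-0.055) and Manf (-0.165). Over 107 named genes and 23 settings, 2449 values included these 6 reversals of called genes, 335 calls lost and 28 gained. Among genes not called, 34 of 1303 values changed sign, in 24 genes. Dropping the knockout ZT20 pools and the list counts without the second ZT4 pool were chosen after seeing the data.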

Other observations

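Some called genes outside the lists are given here as values. They were picked after their values were seen, and no test of a group was made. Dhrs3, a reductase of retinal, had means of 11.11 in early day and 10.65 in early night, a difference of -0.47 ± 0.09 (limma adjusted p = 0.0164, 0.06 ± 0.10 in the knockout), called in 3 of 8 fits without an array. Rdh10, which oxidises retinol, had means of 10.52 and 10.09, a difference of -0.43 ± 0.09 (adjusted p = 0.0246, 0.07 ± 0.10 in the knockout), called in 2 of 8. Npnt, the matrix protein nephronectin, differed by -0.58 ± 0.10 (adjusted p = 0.00634, -0.01 ± 0.11 in the knockout), called in all 8. Itga6, a laminin-binding integrin chain, differed by -0.52 ± 0.11 (adjusted p = 0.0307, 0.22 ± 0.12 in the knockout), called in 1 of 8. The junction proteins Cgn (-0.39 ± 0.09, adjusted p = 0.0405), Cgnl1 (-0.26 ± 0.06, adjusted p = 0.041) and Amot (-0.40 ± 0.09, adjusted p = 0.0262) were called in 4, 1 and 3 of 8 fits. Thra, a thyroid hormone receptor, differed by -0.64 ± 0.08 (adjusted p = 0.00102), called in all 8.

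The 4 genes named next were higher in early night and called in all 8 fits. Ak4, a mitochondrial adenylate kinase, had means of 10.48 in early day and 11.19 in early night, a difference of 0.71 ± 0.10 (adjusted p = 0.00185). Coq10b, a coenzyme Q binding protein, rose by 0.75 ± 0.12 (adjusted p = 0.00429) and Aacs, which activates acetoacetate for lipid synthesis, by 0.74 ± 0.13 (adjusted p = 0.00916). Glul, glutamine synthetase, rose by 0.41 ± 0.07 (adjusted p = 0.00519), with 0.34 ± 0.07 in the knockout.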
